A study of Mus musculus with 29 samples.

Results

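Podocytes sorted as TdTomato-positive or EGFP-positive were compared 7 days after injection of the immunotoxin LMB2. The comparison rests on the arrays whose labels give day 7, 2 of TdTomato podocytes (mice MC221 and MC791) and 4 of EGFP podocytes (mice MC221, MC791, MC824 and MC943), which is 6 of the 29 arrays of the series. The arrays are one-colour Agilent mouse expression arrays, and 15628 named genes could be tested. All mice were male Pod-hCD25T/G animals on a C57BL/6J background, aged 8 weeks. The protocol was a heminephrectomy and then 25 ng LMB2 per gram of body weight, and the day 0 mice were sampled before the injection. The labels carry the same protocol for every sample, so whether the day 0 mice had the heminephrectomy is not settled by them. The labels do not say what the colours mark. From knowledge of the model, these mice carry human CD25 in some of their podocytes, TdTomato marks those cells and EGFP marks podocytes that lack it, so that TdTomato cells at day 7 are targeted cells still present to be sorted. Arrays of day 0 (4 TdTomato and 4 EGFP) and of day 4 (4 TdTomato and 4 EGFP) were read beside the day 7 arrays, and all 29 arrays, day 1 included, entered the fit.

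Podocytes are the epithelial cells on the outer face of the glomerular capillary. They form interlocking foot processes bridged by the slit diaphragm, the last barrier of the filter, and in the adult they rarely divide. LMB2 is a fusion of a CD25-binding antibody fragment with part of Pseudomonas exotoxin, which blocks translation by modifying elongation factor 2, and cells without human CD25 do not take it up by that route.

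Signals are given on a log2 scale as the processed spot intensity over the 75th percentile of the array's own spots, called the level, so that 0 is the level of a probe at that percentile. The gap of a gene is its mean TdTomato level minus its mean EGFP level. The share of spots well above background was 54.9% and 54.2% on the TdTomato arrays, and between 48.2% and 55.9% on the EGFP arrays. Levels of the tested genes correlated at 0.972 between both TdTomato arrays, at 0.972 to 0.986 among the EGFP arrays and at 0.939 to 0.963 between the populations (across genes, which are not independent). The slide, which is also the scan, held both populations of MC221 (slide 1) or of MC791 (slide 2), and slide 3 held the EGFP arrays of MC824 and MC943, so a gap within MC221 or MC791 is also a gap within 1 slide.

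Genes were called in both directions at day 7, and the balance between the directions depended on the fit. In TdTomato podocytes 967 genes (6.19% of those tested) were higher than in EGFP podocytes and 125 (0.800%) were lower, by limma with Benjamini-Hochberg adjusted p under 0.05 in a fit to all 29 arrays. Without adjustment 3412 genes passed 0.05. TdTomato and EGFP samples of the same mouse are pairs, and with the mouse as a fixed replicate block 1168 genes were higher and 521 lower, while with the mouse as a random block 1634 were higher and 1575 lower. With normexp background correction the split was 800 higher and 514 lower. Other settings made fewer calls in the lower direction. Fitting only the groups compared gave 717 higher and 15 lower, and keeping only mice that gave both populations 644 and 7. The median gap of the genes called higher was 2.73 and the largest was 8.04, while the genes called lower had a median gap of -0.58. Of the higher genes 931 had a gap of at least 1 and 421 of at least 3, whereas 9 of the lower genes were beyond -1 and 2 beyond -2. The median gap over all tested genes was -0.18.

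Many of the genes called higher had no measurable signal in EGFP podocytes. Of the 967, 301 (31.1%) were well above background on both TdTomato arrays and on none of the 4 EGFP arrays, against 352 (2.25%) of all genes tested. As the call itself selects for such a pattern, the count is a description. On none of the 8 arrays of day 0 was a signal well above background for 290 of the called genes (30.0%), against 6.46% of all tested genes. Of the called genes 180 lacked signal at day 0 and in day 7 EGFP arrays but had it on both day 7 TdTomato arrays. That pattern was not counted over all tested genes and the call favours it, so the 180 cannot be judged against them. Of the 125 genes called lower, 121 (96.8%) were well above background on all 8 day 0 arrays, against 76.6% of all tested genes, and this too is a description.

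**Figure D1:**
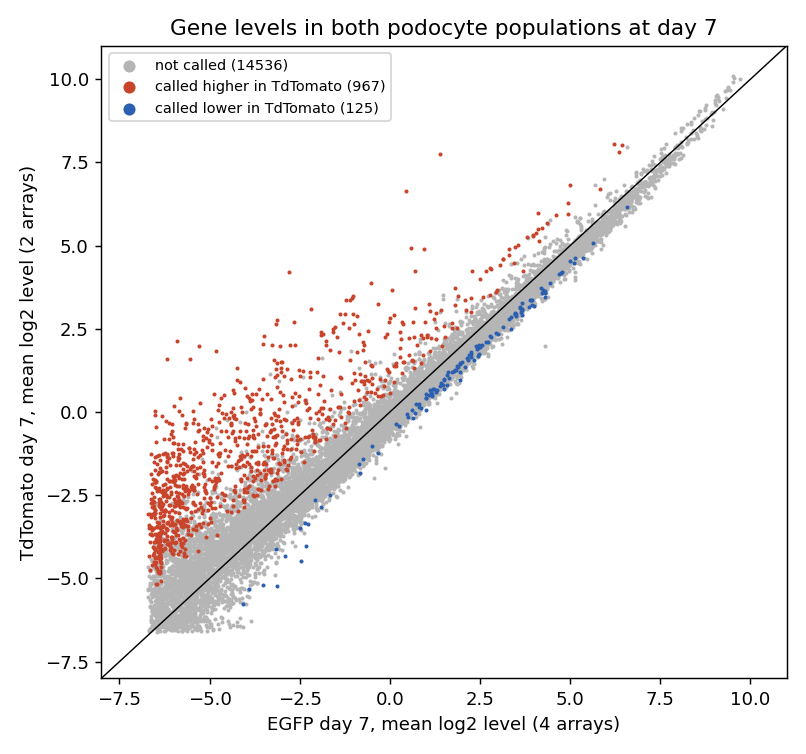
Mean log2 level of each tested gene on the 2 TdTomato arrays (y axis) against the mean on the 4 EGFP arrays (x axis) at day 7, with the line of equal levels. The 967 genes called higher (red) spread far above the line, most of them at low EGFP levels, and the 125 called lower (blue) lie close under it.

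The gap had the same direction in both mice that gave both populations for 962 of the 967 higher genes and for all 125 lower genes, against 80.1% of all tested genes. These arrays also made the calls, so the counts are no independent support. The gaps within MC221 and within MC791 correlated at 0.687 across 15624 genes. The arrays did not overlap between populations for 952 of the higher genes and 122 of the lower ones. Over all tested genes that held for 13.3% with TdTomato above and for 27.4% with TdTomato below. The number of calls rests on each TdTomato array: 586 higher and 31 lower genes were called without that of MC221, and 507 and 25 without that of MC791. Without the EGFP array of MC943, 754 were higher and 31 lower, without that of MC824, 834 and 58, and without that of MC221, 1110 and 321. Nothing states that the 6 samples were processed separately beyond the mouse names, and with 2 TdTomato mice the p-values measure the spread shared with the other groups.

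The largest gap was that of Prl2a1, a prolactin family gene of the rodent placenta, with levels of 1.74 and 2.52 on the TdTomato arrays of MC221 and MC791, against -6.27, -5.95, -4.98 and -6.44 on the EGFP arrays of MC221, MC791, MC824 and MC943. No EGFP array was well above background for it, so the difference is a bound, at least 123-fold higher in TdTomato podocytes (gap 8.04 ± 0.47 SE, limma adjusted p = 8.4e-11). For such bounds the floor of an array was the lowest level of any probe well above background on it. Levels of the undetected population that lay under the floor were raised to it, and higher ones were used as measured. Some probes not well above background lay over that floor, so "at least" is approximate here and below. Il31, a cytokine of activated T cells, stood at 1.65 and 1.53 in TdTomato podocytes and between -6.37 and -6.08 in EGFP podocytes, at least 84.5-fold higher (gap 7.77 ± 0.62, limma adjusted p = 7.8e-09). In both genes every TdTomato array lay more than 6 units above every EGFP array.

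Ripk4, a kinase needed for keratinocyte differentiation, had levels of 2.16 and 1.79 in TdTomato podocytes, against -3.27, -5.58, -6.07 and -6.27 in EGFP podocytes in the same order of mice. The EGFP array of MC221 was the one of the 4 on which Ripk4 was well above background. The gap was 7.28 ± 0.78 (limma adjusted p = 6.2e-07), 5.43 within MC221 and 7.38 within MC791. Ccr6, the receptor of the chemokine CCL20, was at 1.98 and 1.2 in TdTomato podocytes and at -6.34 to -4.74 in EGFP podocytes, at least 83.1-fold higher. Neither gene had overlapping arrays.

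Among these genes some were bright as well as different. P2rx7, an ATP-gated ion channel, had levels of 7.77 and 7.74 in TdTomato podocytes and of 0.99, 1.06, 2.18 and 1.30 in EGFP podocytes, an 82.7-fold difference (gap 6.37 ± 0.49), and the gaps of its 3 probes ran from 6.37 to 7.79. Thbs4, a thrombospondin of the extracellular matrix, was at 6.72 and 6.57 in TdTomato podocytes against -0.01, 0.29, 0.43 and 1.04 in EGFP podocytes (73.8-fold, gap 6.21 ± 0.46). Epha8, an ephrin receptor, stood at 4.47 and 3.96 against -3.36 to -2.32 (130-fold, gap 7.02 ± 0.87). All 3 were well above background on every day 7 array of both populations.

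The other 7 of the 14 genes with the largest gaps (well above background on both TdTomato arrays, with no overlap) had levels between -0.93 and 1.89 in TdTomato podocytes and between -7.31 and -4.20 in EGFP podocytes. Mgarp, which codes for a mitochondrial membrane protein, had a gap of 6.65 ± 0.61 and was detected on 1 EGFP array. Fgf21, an endocrine fibroblast growth factor, was at least 28.7-fold higher (TdTomato 0.17 and -0.10, EGFP -7.31 to -6.04), and Esr1, the oestrogen receptor alpha, at least 26.4-fold (TdTomato -0.43 and 0.25, EGFP -7.20 to -6.15), with gaps of 3.20 to 6.41 over its 3 probes. Tmem151b, a transmembrane protein, was at least 37.1-fold higher and Saa3, an acute-phase serum amyloid, at least 25.9-fold. Spink2, a protease inhibitor of the testis, was at least 31.5-fold and Gykl1, a glycerol kinase of the testis, at least 20.6-fold higher. Limma adjusted p for these 14 genes ran up to 4.9e-06, and all 14 kept their call under each of the 21 alternative settings. The size of the gap depended on the setting. The lowest gap over the alternatives was 1.97 for Gykl1, 2.03 for Saa3, 2.36 for Fgf21 and 4.03 for Prl2a1. It was 6.16 for P2rx7 and 5.77 for Thbs4. The bounds in fold therefore belong to the scaling reported here and need not hold under another setting.

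**Figure D2:**
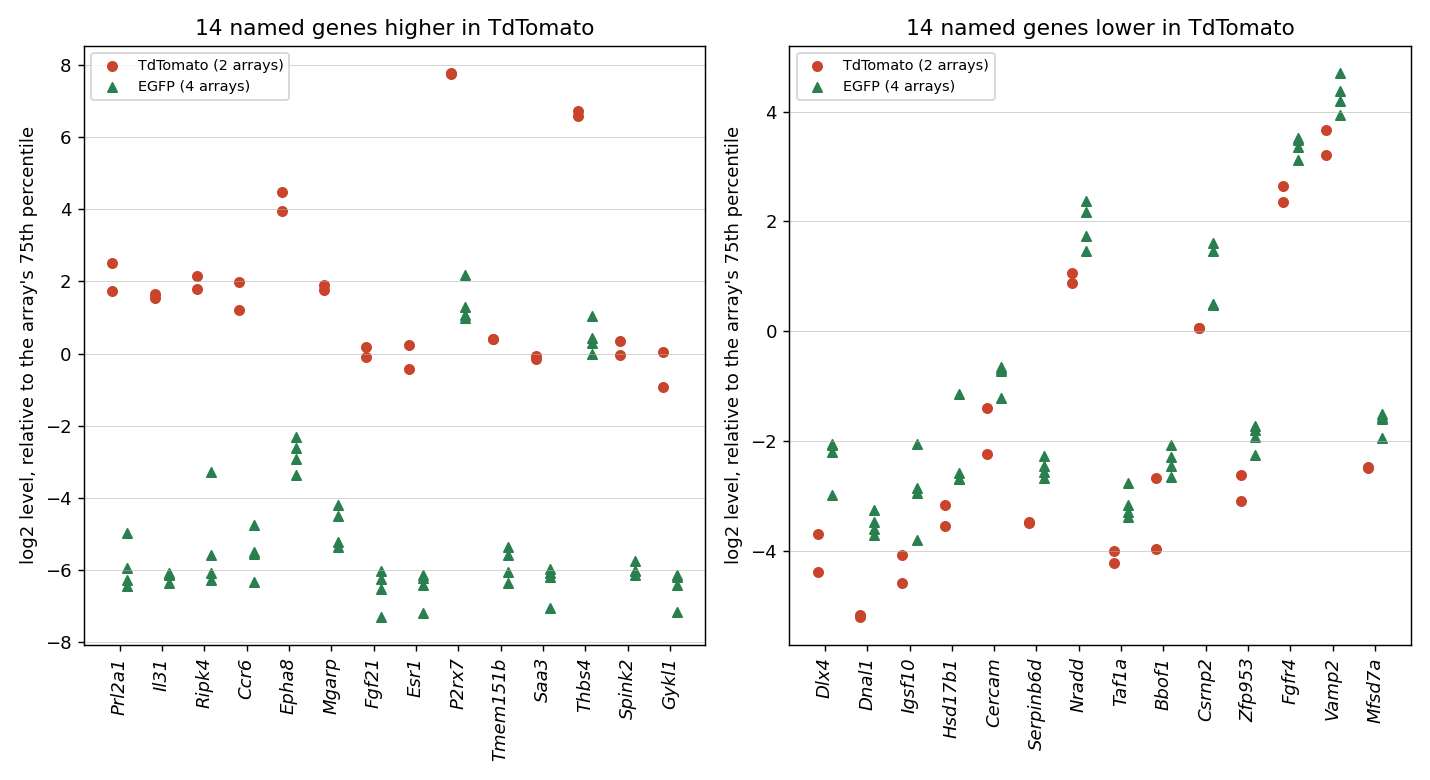
Log2 level on each day 7 array of the 14 genes with the largest gaps above 0 (left panel) and below 0 (right panel), red circles for TdTomato (2 arrays) and green triangles for EGFP (4 arrays). In the left panel every red point of a gene lies at least 5 units above every green one, and in the right panel every red point lies below every green one, mostly by less than 1 unit.

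The genes lower in TdTomato podocytes had small gaps. Dlx4, a homeobox gene, had levels of -3.69 and -4.39 in TdTomato podocytes against -2.20, -2.98, -2.05 and -2.07 in EGFP podocytes, 3.29-fold lower (gap -1.72 ± 0.37, limma adjusted p = 0.0041). Dnal1, an axonemal dynein light chain, was at -5.17 and -5.21 against -3.71 to -3.25, at least 2.30-fold lower because no TdTomato array was well above background. Neither overlapped. The day 0 gap of Dlx4 was -1.41, which did not pass the test there.

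Several genes at measurable levels in every array were lower by about 2-fold or less. Nradd, a relative of the p75 neurotrophin receptor, had levels of 0.87 and 1.06 in TdTomato podocytes against 1.46 to 2.37 in EGFP podocytes (gap -0.97 ± 0.25). Fgfr4, a fibroblast growth factor receptor, was at 2.64 and 2.36 against 3.12 to 3.51 (gap -0.86 ± 0.24), and Vamp2, a SNARE protein of vesicle fusion, at 3.21 and 3.67 against 3.94 to 4.70 (gap -0.86 ± 0.25). In each the TdTomato arrays lay below all EGFP arrays, by less than 1 unit at the nearest. Csrnp2, Cercam, Zfp953, Serpinb6d, Bbof1, Hsd17b1 (which makes oestradiol) and Mfsd7a had gaps of -0.95, -1.0, -0.93, -0.99, -0.96, -1.08 and -0.84. Igsf10 (gap -1.41) and Taf1a, a factor of RNA polymerase I (gap -0.96), were well above background on no TdTomato array. Mars2, the mitochondrial methionyl-tRNA synthetase, had the largest gap below 0 (-2.08), and is named here after its values were seen. It was well above background on no TdTomato array and on 3 of the 4 EGFP arrays, and its EGFP level was -0.75 in MC824 against -3.98, -3.91 and -3.93 in MC221, MC791 and MC943.

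None of the 14 lower genes kept its call under all alternatives, and 12 lost it when 1 array was left out. With normexp background correction the gaps of Dnal1, Igsf10 and Taf1a turned to 0.076, 0.166 and 0.095. With the mouse as a fixed replicate block Igsf10, Csrnp2, Fgfr4 and Vamp2 lost their calls (limma adjusted p = 0.112, 0.0605, 0.096 and 0.0695). Limma adjusted p for the 14 lay between 0.00069 (Taf1a) and 0.044.

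The sorted cells carried podocyte transcripts at high levels in both populations. Of 8 podocyte markers 0 were called in either direction, with a median gap of -0.25 that is close to the -0.18 of all tested genes. Nphs1 (nephrin, the core protein of the slit diaphragm) had levels of 7.04 and 6.69 in TdTomato podocytes against 7.37, 6.99, 7.07 and 6.81 in EGFP podocytes (gap -0.20 ± 0.21, limma adjusted p = 0.56). Podxl (podocalyxin, the charged coat of foot processes) stood at 6.21 and 6.71 in TdTomato podocytes against 6.44 to 7.09 in EGFP podocytes. The arrays of the populations overlapped for both genes.

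Gaps of the other podocyte markers were likewise small. Synpo (synaptopodin, an actin organiser of foot processes) had a gap of -0.25 ± 0.17 with TdTomato levels of 7.06 and 7.04 against 7.19 to 7.45, which did not overlap but did not pass the test (limma adjusted p = 0.38). The transcription factor Wt1 had a gap of -0.22 ± 0.26, and the receptor phosphatase Ptpro one of -0.30 ± 0.17. In bulk samples fewer cells of a type and less RNA per cell cannot be told apart. On the arrays of day 4 the same markers had a median gap of -1.18, with Nphs1 at -1.21 and Synpo at -1.17, both called lower there.

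The machinery around these markers was not called either. None of the 17 slit diaphragm genes, 23 foot process and surface genes, 14 podocyte transcription factor genes or 15 basement membrane genes passed the test, with median gaps of -0.30, -0.35, -0.24 and 0.05. The brightest foot process genes, Cdkn1c (a cell cycle inhibitor of mature podocytes), Nes (the intermediate filament nestin) and Clic5, had gaps of 0.19, -0.09 and -0.22. In the basement membrane list Agrn (agrin), Lama5 (a laminin chain of the mature membrane) and Col4a4 (a type IV collagen chain) had gaps of -0.39, 0.05 and -0.22. In the slit diaphragm, foot process, transcription factor and basement membrane lists, 9, 10, 6 and 6 genes had both TdTomato arrays below every EGFP array. Both lay above every EGFP array for 1, 0, 1 and 4. Over all tested genes those shares were 27.4% and 13.3%. Levels of this kind, with no call, do not show that the populations were equal.

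Housekeeping groups lay near the median of all genes. Of 40 cytosolic ribosomal protein genes 0 were called (median gap -0.10, range -0.30 to 0.36), as were 0 of 35 respiratory chain genes (-0.18), 0 of 22 chaperones (-0.26) and 0 of 21 genes of cholesterol synthesis (-0.22). In the list of the toxin's target and of its route into the cell, 0 of 13 were called. There Eef2 (elongation factor 2) had a gap of -0.23 ± 0.23, Furin (a protease that cleaves the exotoxin) -0.39 ± 0.33, and Dnajc24 (needed to make diphthamide, the residue the toxin modifies) -0.32 ± 0.25. In these lists, in the order given, both TdTomato arrays lay below every EGFP array for 6, 12, 12, 7 and 6 genes. They lay above every EGFP array for 1, 0, 0, 1 and 0. The shares over all tested genes were 27.4% and 13.3%. Neither immediate early genes (0 of 20, with Jun at 0.07, Nr4a1 at -0.19 and Fosb at -0.44) nor MHC class I genes (0 of 15, with H2-K1 at -0.25, H2-Q4 at 0.25 and H2-Q7 at -0.23) held a call, nor did complement genes (0 of 17, with the regulators Cd59a at -0.50, Cd55 at -0.43 and Cr1l at -0.51).

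Some mitotic genes were higher in TdTomato podocytes, while most of their list was not called. Of 37 tested cell cycle genes 8 (21.6%) were called higher and 0 lower, against 6.19% and 0.800% of all genes tested, with a median gap of 0.13. Nusap1, a protein that binds spindle microtubules, had levels of 0.23 and 0.60 in TdTomato podocytes, against -2.53, -4.44, -4.42 and -4.23 in EGFP podocytes of MC221, MC791, MC824 and MC943. The gap was 4.32 ± 0.40 (20.0-fold against measured signals, with 2 of the 4 EGFP arrays well above background, limma adjusted p = 9.4e-08), 2.76 within MC221 and 5.04 within MC791. The EGFP array of MC221 was the highest of the 4 and still lay below both TdTomato arrays.

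Kif20a, a kinesin of the dividing cell's midzone, stood at -0.14 and 0.09 in TdTomato podocytes against -3.61 to -2.83 in EGFP podocytes (9.11-fold, gap 3.19 ± 0.40). Birc5 (survivin, of the chromosomal passenger complex) was at 1.33 and 1.81 against -1.46 to -0.80 (6.40-fold, gap 2.68 ± 0.33), and its 3 probes gave gaps of 2.68 to 4.22. Prc1, which bundles midzone microtubules, was at -1.04 and -0.98 against -3.99 to -3.03 (5.15-fold, with 3 of 4 EGFP arrays above background, gap 2.36 ± 0.29). These 4 genes act in mitosis and cytokinesis, and the arrays of the populations did not overlap for any of them.

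The other called members were Ccna2 (cyclin A2, gap 2.14), Ccnb2 (cyclin B2, gap 1.56), Plk1 (polo-like kinase 1, gap 1.14) and Mcm7 (a helicase subunit of DNA replication, gap 0.52). The other 29 members did not pass, 16 with a gap above 0 and 13 with a gap below 0. Among them, named here after their values were seen, were Ccnb1 (cyclin B1, gap 1.69), Mki67 (gap 0.93), Cdk1 (the mitotic kinase, gap 0.12), Kif11 (a spindle kinesin, gap -0.04), Aurka (aurora kinase A, gap -0.10), Pcna (gap -0.40), Ndc80 (of the kinetochore, gap -0.48) and Ckap2 (gap -0.91). The summed level of the list was slightly lower in TdTomato podocytes, at 59.5 to 61.8 against 62.4 to 75.3 in EGFP podocytes (in linear units of the 75th percentile). Its brightest member was Ccnd1 (cyclin D1), with a gap of -0.47 that did not pass the test. Whether these transcripts come from podocytes or from other cells in the sort was not tested. The count of called members was 5 of 37 without the TdTomato array of MC221, that of MC791 or the EGFP array of MC943.

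Promoters of mitotic genes are known to share the CHR element (letters TTTGAA) and CCAAT boxes, and the promoters of called members are shown for that reason. RefSeq windows on build GRCm38.p6, from 250 bases before to 50 after the gene's start, were used for 6 of the 8 called members, all but Kif20a and Ccna2. Windows of list members on a chromosome set aside by rule were passed over, a rule not applied to the shares over all windows. Capitals mark TTTGAA and CCAAT on either strand, and sequences run 5′ to 3′ along the gene's strand.
Nusap1, chr2:119618048-119618347, plus strand: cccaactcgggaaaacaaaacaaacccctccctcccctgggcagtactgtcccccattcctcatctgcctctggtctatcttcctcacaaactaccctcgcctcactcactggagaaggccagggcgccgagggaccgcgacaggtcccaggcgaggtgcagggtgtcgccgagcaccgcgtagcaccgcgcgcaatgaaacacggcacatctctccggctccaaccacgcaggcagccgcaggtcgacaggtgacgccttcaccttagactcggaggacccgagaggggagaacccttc
Ccnb2, chr9:70421505-70421804, minus strand: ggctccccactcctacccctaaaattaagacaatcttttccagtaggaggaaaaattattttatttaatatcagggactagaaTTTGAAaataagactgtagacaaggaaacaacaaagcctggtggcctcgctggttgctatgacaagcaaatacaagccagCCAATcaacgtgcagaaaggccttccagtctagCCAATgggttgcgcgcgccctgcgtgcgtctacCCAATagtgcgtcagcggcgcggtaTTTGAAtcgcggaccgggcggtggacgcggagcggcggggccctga
Plk1, chr7:122159185-122159484, plus strand: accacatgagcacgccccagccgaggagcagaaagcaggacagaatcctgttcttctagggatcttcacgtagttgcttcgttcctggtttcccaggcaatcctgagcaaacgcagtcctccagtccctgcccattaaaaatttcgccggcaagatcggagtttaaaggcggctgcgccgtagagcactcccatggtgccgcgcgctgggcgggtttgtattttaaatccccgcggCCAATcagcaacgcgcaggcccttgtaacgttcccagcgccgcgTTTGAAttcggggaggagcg
Prc1, chr7:80294201-80294500, plus strand: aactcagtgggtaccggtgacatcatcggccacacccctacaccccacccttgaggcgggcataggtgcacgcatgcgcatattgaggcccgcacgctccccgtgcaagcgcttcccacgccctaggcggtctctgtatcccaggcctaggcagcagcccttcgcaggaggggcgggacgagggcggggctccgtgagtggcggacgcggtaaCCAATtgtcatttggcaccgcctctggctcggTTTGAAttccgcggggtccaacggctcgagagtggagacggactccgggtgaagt
Of the 6 windows 3 (Ccnb2, Plk1 and Prc1) held both motifs, 4 held CCAAT and 3 held TTTGAA. Over all 32851 windows from RefSeq 6.95% held both, 37.4% CCAAT and 17.9% TTTGAA. Of 26 other tested cell cycle members with a window, none of which was called, 13 held both. The windows of Nusap1 and Birc5 held neither set of letters, which says nothing about the factors that bind there.

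Podocyte injury markers held a single call in each direction. Of 21 podocyte injury markers 1 was higher and 1 lower (4.76% each), against 6.19% higher and 0.800% lower among all genes tested. Of 21 p53 targets 1 was higher as well (4.76%). Cdkn1a (p21, which arrests the cell cycle, also 1 of 21 p53 targets and the only one called) had levels of 2.14 and 3.14 in TdTomato podocytes against 0.19, 0.58, 0.08 and 0.58 in EGFP podocytes (4.86-fold, gap 2.28 ± 0.61, limma adjusted p = 0.021), and Krt7 (keratin 7) a gap of -0.49 ± 0.14 (limma adjusted p = 0.039). The call of Cdkn1a was lost without the TdTomato array of MC791 or the EGFP array of MC824, and that of Krt7 without either TdTomato array, the EGFP array of MC824 or MC943, or with the mouse as a fixed block (limma adjusted p = 0.0802). Des, the injury marker desmin, was at 0.86 and 1.28 against 1.30 to 2.40 (gap -0.78 ± 0.32, limma adjusted p = 0.15).

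In the list of stratified epithelium and desmosomes 3 of 20 (15%) were higher, against 6.19% of all genes tested. The 3 include Ripk4, a marker given with the comparison. Beside Ripk4, Evpl (envoplakin, of the cornified envelope) was at 2.03 and 1.68 in TdTomato podocytes against -1.12 to -0.36 in EGFP podocytes (6.02-fold, gap 2.59 ± 0.25, limma adjusted p = 1.9e-07). The third was Ovol1 (an epidermal transcription factor), at -2.02 and -2.10 against -7.24 to -4.33, at least 6.14-fold higher. Neither overlapped, and the EGFP array of MC221 was the highest of the 4 for Ovol1.

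In the signalling and inflammatory lists the shares called are read against the 6.19% of all genes tested. In the NF-kB and chemokine list 2 of 28 (7.14%) were higher, a share near that of all genes, Cxcl16 (a membrane-bound chemokine, TdTomato 1.11 and 1.89, EGFP -3.38 to -2.45, 22.6-fold) and Tnf (gap 1.63, not well above background on any of the 6 arrays). Of 27 interferon-stimulated genes 3 (11.1%) were higher: Gbp4 (a guanylate-binding GTPase, at least 5.88-fold), Ifi44 (gap 2.57) and Isg15 (a ubiquitin-like modifier, gap 1.41, TdTomato 2.97 and 3.47, EGFP 1.47 to 2.21). Of those, Gbp4 kept its call when any 1 array was left out, whereas Isg15 lost it in each such case (limma adjusted p up to 0.30) and Ifi44 lost it without TdTomato MC221, TdTomato MC791 or EGFP MC791 (up to 0.16). The call of Tnf was lost without either TdTomato array, EGFP MC824 or EGFP MC943 (up to 0.32), and with the mouse as a fixed block (0.0855).

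Of 27 genes of TGF-beta signalling and matrix 2 (7.41%, near the 6.19% of all genes) were higher, Thbs4 and Col22a1 (a collagen of tissue junctions, TdTomato 1.61 and 1.5, EGFP -3.90 to -2.46, 27.3-fold). Mmp13, a collagenase, was the 1 called of 17 matrix proteases and inhibitors (TdTomato -3.07 and -2.97, EGFP -7.20 to -6.16, at least 3.45-fold higher). Itgb6, the epithelial integrin chain that activates latent TGF-beta, was the 1 called of 30 focal adhesion and actin genes (gap 3.13 ± 0.61). Its 2 probes gave gaps of 0.88 and 3.13, and the call was lost without the TdTomato array of MC221 (limma adjusted p = 0.083).

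Counts here are read against 6.19% higher and 0.800% lower among all genes tested. Among 22 growth factors and receptors 3 (13.6%) were higher, Fgf21, Angpt1 (an angiopoietin ligand of the endothelial receptor Tek, gap 2.63 ± 0.65) and Nrg1 (a ligand of ErbB receptors, gap 2.0 ± 0.58). Angpt1 lost its call without either TdTomato array, and Nrg1 without either of them or EGFP MC824 or MC943, and both lost it with the mouse as a fixed block (limma adjusted p = 0.0539 and 0.119). Fgf21 was also the 1 called of 19 ATF4 targets and serine synthesis genes. Of 26 genes of regulated cell death 0 were higher and 1 was lower, Ripk1 (a kinase of necroptosis, TdTomato 0.43 and 0.62, EGFP 0.90 to 1.38, gap -0.63 ± 0.18), whose call was lost without either TdTomato array, EGFP MC824 or MC943, and with the mouse as a fixed block (limma adjusted p = 0.111). Of 13 iron genes 1 was higher, Hamp (hepcidin, gap 2.22 ± 0.62), whose arrays overlapped, which was well above background on 1 TdTomato and no EGFP array, and which lost its call without TdTomato MC791 or EGFP MC221, MC791 or MC943.

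**Figure D3:**
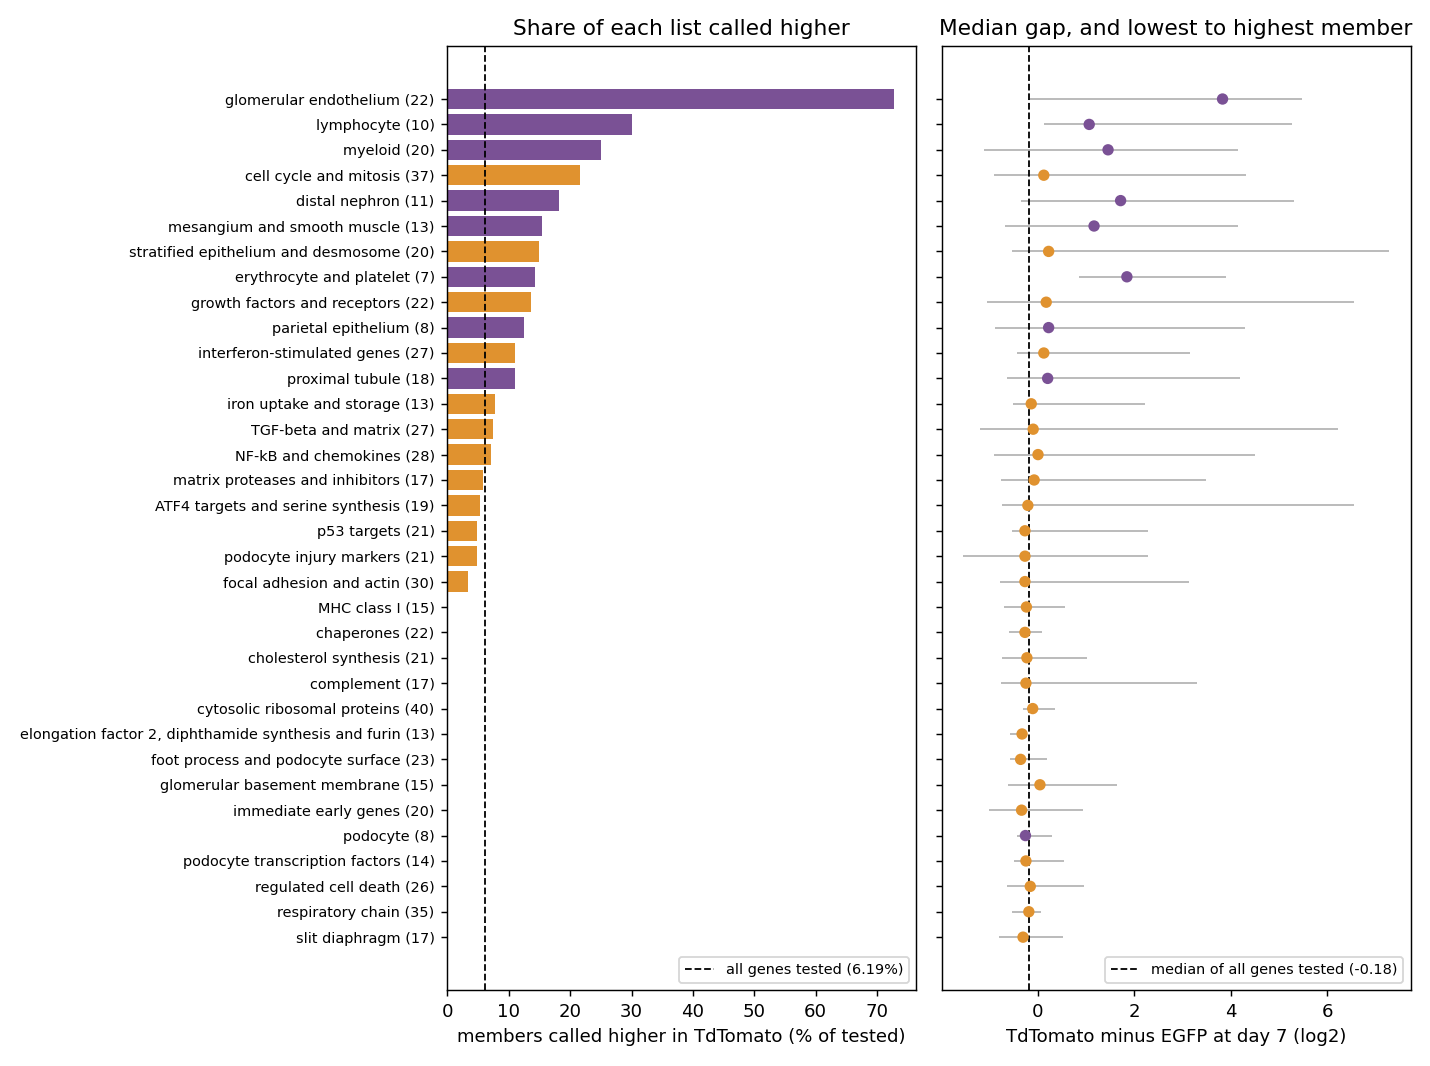
For each gene list (number of tested members in brackets), the percentage called higher in TdTomato (bars, left) and the median gap with its range (points and lines, right), purple for cell type markers and orange for other lists; dashed lines give all genes tested. Glomerular endothelium stands at 72.7% against 6.19% of all genes, and 14 lists, podocyte markers among them, hold no gene called higher.

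Markers of glomerular endothelial cells were higher in the TdTomato sort. Of 22 endothelial markers 16 (72.7%) were called higher and 0 lower, against 6.19% and 0.800% of all genes tested. The median gap of the 22 was 3.83, 3.75 within MC221 and 4.87 within MC791. Sox18, an endothelial transcription factor, had levels of -0.46 and 0.53 in TdTomato podocytes against -6.39, -5.42, -4.63 and -5.35 in EGFP podocytes, at least 28.6-fold higher (gap 5.48 ± 1.14, limma adjusted p = 0.0026). Sox17, its relative, was at least 21.3-fold higher. Every TdTomato array lay above every EGFP array for 21 of the 22 markers, as it did for 13.3% of all genes tested.

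Emcn (endomucin, a surface mucin of capillaries) was at 1.26 and 2.77 in TdTomato podocytes against -4.10 to -1.85 in EGFP podocytes (25.2-fold), and Robo4 (an endothelial guidance receptor) at 0.69 and 1.90 against -4.50 to -2.37 (21.7-fold), each with 3 of the 4 EGFP arrays well above background. The junction proteins Pecam1 and Cdh5 had gaps of 2.39 and 4.34. The 6 members not called were Kdr, Ehd3, Plvap, Tie1, Cldn5 and Cd93, of which Kdr (the VEGF receptor) was at 3.31 and 3.03 against 2.55 to 2.87 and Cldn5, which podocytes also express, at 6.95 and 6.84 against 6.91 to 7.29. No defining marker of the list was absent from the TdTomato arrays, as all 22 were well above background on both.

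The summed level of the endothelial list without Cldn5, which outweighs the rest, was 74.9 to 147 in TdTomato podocytes and 12.6 to 18.1 in EGFP podocytes at day 7 (linear units of the 75th percentile). At day 4 it was 14.6 to 95.2 in TdTomato and 10.4 to 23.6 in EGFP podocytes, and at day 0 13.7 to 26.4 and 13.8 to 20.3. The median level of the list was 1.75 on the TdTomato array of MC791 and 0.57 on that of MC221. Without the TdTomato array of MC791 1 of the 22 was called, with a median gap of 3.19, against 10 of 22 without TdTomato MC221. Sox17, Sox18 and Robo4 lost their calls without TdTomato MC791 (limma adjusted p = 0.068, 0.070 and 0.083) and Emcn without any 1 of the 4 arrays of MC221 and MC791. Whether these transcripts come from endothelial cells in the sort or from podocytes was not tested. How much of the list of 967 genes moves with the endothelial markers was not tested either.

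**Figure D4:**
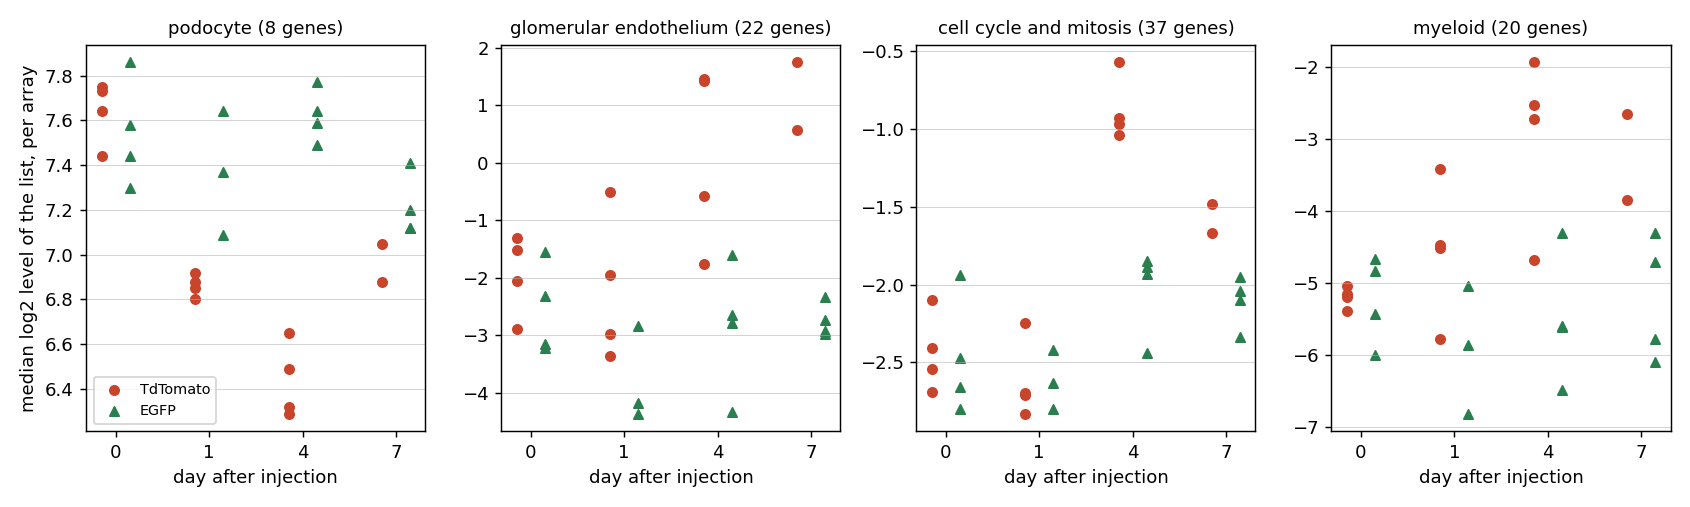
Median log2 level of the podocyte, glomerular endothelial, cell cycle and myeloid lists on each array (y axis) by day after injection (x axis), red circles for TdTomato and green triangles for EGFP. At day 7 the endothelial medians are 0.57 and 1.75 in TdTomato and -2.97 to -2.33 in EGFP podocytes, and the podocyte medians, at 6.88 and 7.05 against 7.12 to 7.41, lie closer together than at day 4.

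Smaller shares of the other marker lists were called, and each is read against the 6.19% of all genes tested. Of 20 myeloid markers 5 (25.0%) were higher, led by C1qa (complement C1q, TdTomato -2.43 and -2.46, EGFP -7.29 to -6.23, at least 5.14-fold), with Laptm5 (at least 3.37-fold), Lyz1 (at least 3.94-fold), Spi1 and Fcer1g. The pan-leukocyte gene Ptprc and the macrophage gene Adgre1, picked out here after their values were seen, were well above background on neither TdTomato array. The summed myeloid level was 48.1 to 79.9 in TdTomato and 22.3 to 40.7 in EGFP podocytes. At day 0 it was 39.2 to 57.1 and 37.3 to 65.1, so the TdTomato ranges of both days overlapped. The median myeloid gap was 0.1 within MC221 and 2.85 within MC791. Without TdTomato MC791 the count was 1 of 20 and without TdTomato MC221 it was 4.

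Of 10 lymphocyte markers 3 (30.0%) were higher, Cd79b (a chain of the B cell receptor, at least 16.1-fold), Ccr7 and Gzma, with a summed level of 5.91 to 7.85 in TdTomato and 4.05 to 5.51 in EGFP podocytes. The lymphocyte sums at day 0 were 3.76 to 8.4 in TdTomato and 3.45 to 6.64 in EGFP podocytes. Of 13 markers of mesangium and smooth muscle 2 (15.4%) were higher, Notch3 (a receptor of mural cells, TdTomato -0.81 and -0.31, EGFP -5.34 to -3.82) and Gata3. The sum of that list was 28.6 to 30.4 in TdTomato and 33.3 to 43.0 in EGFP podocytes. Of 18 proximal tubule markers 2 (11.1%) were higher, the water channel Aqp1 (18.3-fold against measured signals, with 2 of the 4 EGFP arrays well above background) and Ttc36 (at least 9.07-fold), with sums of 5.84 to 9.84 and 1.53 to 10.2.

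Of 11 distal nephron markers 2 (18.2%) were higher, the channel Aqp3 (at least 21.9-fold) and Hsd11b2 (the enzyme that inactivates corticosterone, at least 3.26-fold), with sums of 4.72 to 63.9 in TdTomato and 2.76 to 29.3 in EGFP podocytes. The stem cell marker Prom1 was the 1 called of 8 parietal epithelial markers (12.5%) (TdTomato 0.40 and -0.77, EGFP -1.73, -4.60, -5.07 and -6.49), with sums of 19.7 to 20.3 and 17.3 to 22.9. Platelet factor Pf4 was the 1 called of 7 erythrocyte and platelet markers (14.3%) (at least 4.43-fold), with sums of 0.671 to 8.43 and 0.247 to 1.35. Aqp1, Ttc36, Hsd11b2, Pf4, Gzma, Lyz1, Laptm5 and Spi1 lost their calls without TdTomato MC791, Prom1, Ccr7 and Laptm5 without TdTomato MC221, and Gata3 without any 1 of the 6 arrays. Aqp1 also lost its call without EGFP MC791 or MC943, and Laptm5 without EGFP MC791. Whether these markers come from other cells in the sort, and the part of such cells in the gene calls, was not tested.

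Before injection the same test made no call. At day 0, 0 genes were called in either direction (limma, with 74 genes under 0.05 before adjustment), and the median gap was 0.014. The difference between the day 7 and the day 0 gap passed for 414 genes in the higher direction (2.65%) and for 6 in the lower (0.0384%). Prl2a1 led with a difference of 7.97, followed by Ripk4 (7.72), Il31 (7.54) and Ccr6 (7.37). In the lower direction were Dnal1 (-1.71), Taf1a (-1.06), Szrd1 (-0.91) and Mettl6, a tRNA methyltransferase (-0.77). With the mouse as a fixed replicate block 632 genes passed in the higher and 73 in the lower direction, with it as a random block 1075 and 389, and with normexp correction 167 and 1. Of the 22 endothelial markers 1 passed this test, and 4 of the 37 cell cycle genes did.

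Over the course of the series Prl2a1 was well above background on none of the 4 TdTomato arrays at day 0 and on all of them at days 1 and 4. Its mean TdTomato levels were -6.98, 1.35, 4.55 and 2.13 at days 0, 1, 4 and 7, beside -7.05, -6.96, -3.73 and -5.91 in EGFP podocytes. Ripk4 averaged -6.90, -5.99, 3.45 and 1.98 in TdTomato podocytes on those days and -6.46, -6.76, -4.49 and -5.30 in EGFP podocytes. Nusap1 averaged -4.79, -4.42, 1.62 and 0.41 in TdTomato podocytes, against -4.27, -4.56, -4.59 and -3.90 in EGFP podocytes. These 3 genes were highest in TdTomato podocytes at day 4. The TdTomato means of Sox18 and Fgf21 were highest at day 7, at 0.03 and 0.04, against -1.15 (SD 1.60) and -1.77 (SD 0.32) at day 4. The 2 day 7 levels of Sox18 were -0.46 and 0.53, within that SD of its day 4 spread or near it, and the change between the days was not tested.

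Most genes that differed at day 7 also differed at day 4. At day 4, 3284 genes (21.0%) were higher and 6032 (38.6%) lower in TdTomato podocytes by the same test. The day 7 arrays did not enter the day 4 means, but they entered the shared filter and the estimate of the spread. Read at day 7, 857 of the 3284 (26.1%) were called higher and 1 lower, and 114 of the 6032 (1.89%) were called lower and 0 higher. These genes made up 88.6% of all genes called higher at day 7 and 91.2% of those called lower. Among the 6312 genes not called at day 4, 110 (1.74%) were higher and 10 lower.

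Genes called at day 4 mostly had smaller gaps at day 7. The median gap of the 3284 genes was 2.0 at day 4 and 0.62 at day 7 (0.41 within MC221 and 0.72 within MC791), and that of the 6032 genes was -0.90 at day 4 and -0.34 at day 7 (-0.30 within each mouse). The gap was nearer to 0 at day 7 for 91.0% of the first group and 97.8% of the second, both of which were picked for their day 4 gaps, and for 46.2% of the genes not called at day 4. For each gene called higher at both days, the mean level at day 4 was taken from that at day 7. The median of these differences over genes was -1.25 in TdTomato and -0.15 in EGFP podocytes. Day 4 and day 7 mice are different animals.

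Among the genes picked by the largest day 4 gaps, Prl7b1 (a placental prolactin family gene) had a gap of 8.32 at day 4 and of 4.15 ± 0.77 at day 7, with TdTomato levels of -1.45 and -0.98 against EGFP levels of -6.54 to -4.86. Elf5, a transcription factor of trophoblast and mammary epithelium, had gaps of 8.26 and 5.09 ± 0.75 (at least 14.6-fold higher at day 7), and Gstt4, a glutathione transferase, 8.31 and 5.66 ± 0.56. Spink2, Il31 and Prl2a1 completed that group, with day 4 gaps of 8.34, 8.32 and 8.28. All 6 were called higher at day 7, and none overlapped between populations. Of the genes lowest at day 4, Cldn17, Olfr1251, Igsf1, Zdhhc8, Dlx4 and Ppp1r3b, Dlx4 was called at day 7, and the others had gaps between -1.38 and -0.12. The 2 probes of Igsf1 disagreed at day 7 (-1.38 and 1.00).

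Some genes had larger gaps at day 7. Of the genes called higher at day 7, 323 (33.4%) had a larger gap there than at day 4, among them 15 of the 16 endothelial markers called. They were picked by their day 7 call, which favours a larger day 7 gap. The median endothelial gap was 0.52 at day 0, 2.17 at day 4 and 3.83 at day 7, whereas the median cell cycle gap was 0.05, 0.19 and 0.13. The median endothelial levels of single TdTomato arrays overlapped between the days, at -0.57, -1.75, 1.45 and 1.42 at day 4 and 0.57 and 1.75 at day 7. Fgf21, with gaps of 4.49 at day 4 and 6.56 at day 7, and Pf4, with -0.15 and 3.91, were 2 of these genes.

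**Figure D5:**
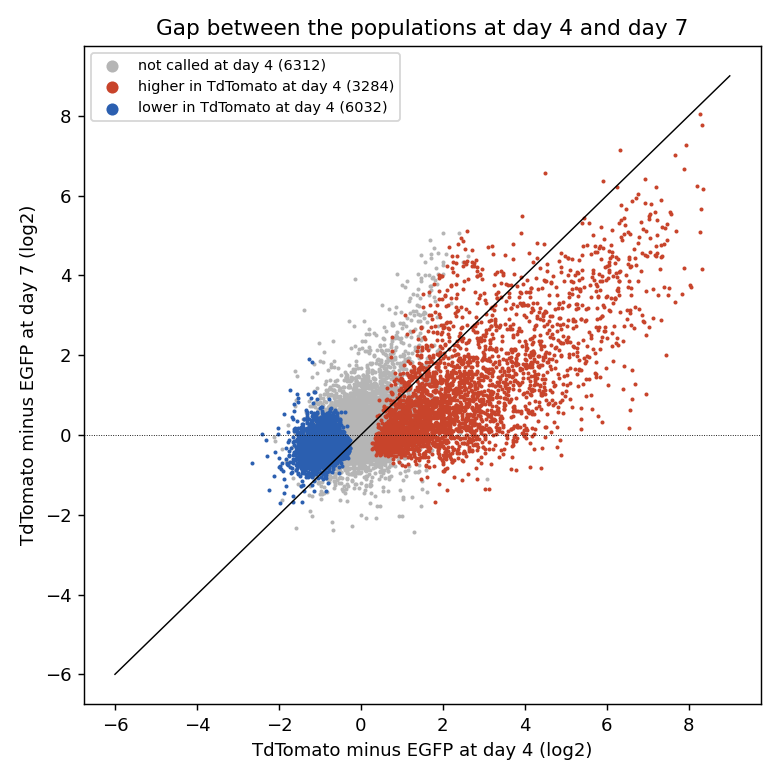
Gap of each tested gene at day 7 (y axis, log2) against its gap at day 4 (x axis, log2), coloured by the day 4 call, with the line of equal gaps. Most of the 3284 genes higher at day 4 (red) lie under the line with a median day 7 gap of 0.62, the 6032 lower ones (blue) gather near 0 with a median of -0.34, and 323 of the genes called higher at day 7 lie above the line.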

How the data were processed

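Per the labels, RNA of sorted cells was labelled with Cy3 from 0.1 µg. Per the file headers, the deposited intensity values of each spot came from Agilent Feature Extraction 11.5.1.1 (the processed signal). For the log2 values of the series matrix deposited by the authors, no label or header names the scaling. In that matrix the 2 columns of MC221 at day 7 equal the mean of their group's arrays (r = 0.99999 with the mean of 2 TdTomato arrays and 1.0 with that of 4 EGFP arrays), so the scanner files were used.

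Levels are log2 of the processed signal minus log2 of the array's 75th percentile over 59305 non-control spots, and outlier spots were set aside. Of 55681 probes 38196 were well above background on at least 3 of 29 arrays, and 26582 had 1 symbol through RefSeq accessions, 29099 none. The brightest probe of a gene was taken, which gave 15628 genes with 50 missing values. Limma 3.58.1 in R 4.3.3 fitted 8 group means to all 29 arrays, with Benjamini-Hochberg adjustment at 0.05. The fit was tested on simulated data with independent arrays and no effect of the mouse, so that test does not cover the pairing of samples. Python 3.11.15, pandas 2.3.3 and matplotlib 3.10.9 made tables and figures. Arrays hold no counts, so their number limits the precision.

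Both samples of a mouse come from 1 animal and so are paired. Their deviations from group means correlated across genes at 0.041 (MC823) to 0.636 (MC122). The consensus correlation within mice that limma estimates gene by gene, a different measure, was 0.596. Alternatives were the mouse as a fixed or random replicate block, the slide as a block, the fit on the compared groups alone, normexp correction (on the median spot signal, as no mean signal was in the files), quantile normalization, other filters, other probe rules, the series matrix and leaving out arrays.

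The members and the 35 gene lists were chosen with earlier results of these data known. Named genes are 10 fixed names, up to 14 largest called changes per direction at day 7 (detected on every array of the higher group, no overlap), up to 4 per direction for the difference from day 0, up to 6 per direction picked at day 4, and up to 4 called or 3 brightest members per list. Among the fixed names, Ripk4, Nusap1 and Sox18 were given with the comparison as markers. The shares called in the stratified epithelium, cell cycle and endothelial lists include them. Not every gene named by the rule is reported here. No column belonged to an unknown sample (0).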

Additional observations from a re-analysis of the deposited data

Results flagged for a closer look

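Of the 117 named genes 6 had 1 EGFP array at day 7 far from the other 3, where chance gives such a flag in about 1 in 20 groups. Nusap1 was highest in MC221 (-2.53, others -4.44 to -4.23), and Podxl was lowest there (6.44, others 7.02 to 7.09), as was Cercam (-1.22, others -0.72 to -0.66). In MC791 Dlx4 was lowest (-2.98, others -2.20 to -2.05) and Angpt1 highest (-4.75, others -6.44 to -6.16). Hsd17b1 was highest in MC824 (-1.15, others -2.69 to -2.58).

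The day 7 gap exceeded the day 0 gap for 414 genes and was below it for 6, by limma's test of the difference. Among the named genes 35 were in the first group and 4 in the second. The differences in gap (log2) of the genes with the largest day 7 gaps were Prl2a1 (7.97), Ripk4 (7.72), Il31 (7.54), Ccr6 (7.37), Epha8 (6.82), Tmem151b (6.60), Mgarp (6.47), P2rx7 (6.36), Fgf21 (6.34), Esr1 (6.06), Saa3 (6.04), Spink2 (5.96), Gykl1 (5.81) and Thbs4 (5.61). Those of mitotic genes were Nusap1 (4.84), Kif20a (3.47), Birc5 (2.71) and Prc1 (2.27), and those of genes picked at day 4 were Gstt4 (4.81), Elf5 (4.74) and Prl7b1 (4.26). Among markers of other cell types they were Cd79b (5.60), Aqp3 (4.47), C1qa (4.28), Pf4 (3.86), Hsd11b2 (3.38), Notch3 (3.28) and Gzma (3.27). The 4 in the lower direction were Dnal1 (-1.71), Taf1a (-1.06), Szrd1 (-0.91) and Mettl6 (-0.77). The other named genes with a difference were Ovol1 (4.01), Evpl (2.54), Cxcl16 (4.75), Gbp4 (2.99), Col22a1 (5.04), Mmp13 (3.12) and Itgb6 (3.88).

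Of 17742 tested probes without a gene symbol, which enter no count above, 989 were higher and 30 lower in TdTomato podocytes at day 7 by limma. Of the 989, 308 were well above background on both TdTomato arrays and on no EGFP array. That pattern was not counted over all probes without a symbol and the call favours it, so the 308 is a description.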

How the results depend on the processing

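The count of 1092 genes at day 7 was 1689 with the mouse as a fixed replicate block, 3209 with the mouse as a random replicate block, 2229 with the slide as a block, 1923 on the series matrix as deposited, 637 without both arrays of MC221 and 651 with only mice that gave both populations. The matrix with the MC221 columns turned back into single arrays was chosen after seeing the data, as were, for the difference from day 0, leaving out both MC221 arrays and keeping only mice that gave both populations (328 in each). Leaving out 1 array gave 532 (without TdTomato MC791) to 1431 (without EGFP MC221). The count of 420 for the difference from day 0 was 705 and 1464 with the replicate block (fixed and random), 844 with the slide, 655 on the matrix and 168 with normexp, and 288 to 533 leaving out 1 array. At day 0 the random block gave 1 call and the other settings 0. The day 4 count stayed within 1.5 times its value under each setting run (8461 to 11532). Fitting only the groups compared gave 717 higher and 15 lower genes at day 7, and no filter gave 905 and 66.

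The median day 7 gap of genes lower at day 4 (-0.343) was -0.298 and -0.318 with the replicate block (fixed and random), -0.371 with normexp, -0.224 with quantile normalization, -0.326 with probe means, -0.306 with the slide, -0.382 on the matrix, -0.375 on the matrix with MC221 turned back, -0.298 with only mice that gave both populations, and -0.362 to -0.318 leaving out 1 array. That of genes higher at day 4 (0.617) was 0.423 to 0.732. With normexp the gaps of Dnal1 (0.076), Igsf10 (0.166) and Taf1a (0.095) changed sign. Of 72 called named genes 29, all higher, kept their call under all alternatives run and 39 lost it without 1 of the arrays. The cause of these changes was not tested. Genes near background have the least certain gaps.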

Other observations

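For 966 genes called higher at day 7 with all values, the EGFP array with the highest level was that of MC221 for 409 (42.3%), MC824 for 341 (35.3%), MC791 for 126 (13%) and MC943 for 90 (9.32%). Over all 15623 such genes these shares were 34%, 21.5%, 16.7% and 27.8%. For the 125 genes called lower, the highest EGFP level was in MC943 for 82 (65.6%). Being called higher or lower was computed from the same arrays, so these counts are descriptions.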
